A study of Mus musculus with 12 samples.

Results

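The 7 genes described here encode the catalytic subunits of the 20S proteasome, the barrel-shaped protease that cuts cytosolic proteins into peptides. They were chosen by symbol, and all 7 were found among the 34547 genes quantified: Psmb6, Psmb7 and Psmb5 (β1, β2 and β5 of the standard proteasome), Psmb9, Psmb10 and Psmb8 (β1i, β2i and β5i of the immunoproteasome) and Psmb11 (β5t of the thymoproteasome). Their RNA was measured in sorted cortical and medullary thymic epithelial cells (cTEC and mTEC) from WT mice and from Aβ0/0 mice (AB0 in the sample names), which lack MHC class II molecules, with 3 libraries in each of the 4 groups. Among Epcam+CD45- cells, those that were Ly51+UEA1- were taken as cTEC and those that were Ly51-UEA1+ as mTEC. Each library came from a pool of 5 to 10 mice of 4 to 6 weeks of age. A cTEC and a mTEC library with the same number and genotype were taken to be from one pool, though the sample names give the number only. No group had been treated. The C57BL/6 WT mice were purchased and the Aβ0/0 mice were provided by another laboratory, so genotype and source of the mice cannot be told apart.

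A proteasome core carries each of its proteolytic activities at a fixed position in the inner rings, and a catalytic subunit is built in at that position as a precursor that trims itself to expose a threonine. Inducible subunits take the place of the standard ones where they are made, mostly in immune cells and under interferon, and they change which peptides reach MHC class I. β5t replaces the β5 subunit in cTEC, where the peptides so made are presented to developing CD8 T cells during positive selection. mTEC present self-peptides for the deletion of self-reactive T cells and are known as cells that express the immunoproteasome.

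All 7 proteins cut with a catalytic threonine, and the sequence around its codon is shown because it is the part of the active site by which the subunits of a position can be compared. Each line gives 12 bases before the codon and 45 bases from it on, 5′ to 3′ on the coding strand, with the codon in capitals. They were read from the GENCODE transcripts of GRCm38.
Psmb6 (β1): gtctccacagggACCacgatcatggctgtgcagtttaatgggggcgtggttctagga
Psmb9 (β1i): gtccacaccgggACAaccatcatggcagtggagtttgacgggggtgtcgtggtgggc
Psmb7 (β2): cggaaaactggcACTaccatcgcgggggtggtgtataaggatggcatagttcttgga
Psmb10 (β2i): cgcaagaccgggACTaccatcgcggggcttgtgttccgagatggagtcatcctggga
Psmb5 (β5): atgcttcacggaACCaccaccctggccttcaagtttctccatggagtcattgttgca
Psmb8 (β5i): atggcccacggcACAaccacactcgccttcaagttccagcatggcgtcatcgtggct
Psmb11 (β5t): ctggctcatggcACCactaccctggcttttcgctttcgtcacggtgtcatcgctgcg

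The windows of the 3 β5 subunits had more bases in common with each other than with those of the other positions. Psmb5 and Psmb8 were equal at 43 of 57 bases, Psmb5 and Psmb11 at 39, and Psmb8 and Psmb11 at 37. Psmb11 was equal at 24 to 28 bases to the β1 and β2 subunits. Psmb6 and Psmb9 shared 42 bases and Psmb7 and Psmb10 shared 40. Over the whole coding sequence, identity within a position was between 64.6% (Psmb7 and Psmb10) and 68.6% (Psmb5 and Psmb8), and between positions it reached 67.3% (Psmb9 and Psmb8). No stretch of 31 bases was shared between any 2 of the 7 genes, so reads from one member could be told from those of the others over such a stretch.

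Psmb9 lies at chr17:34181987-34187764 (minus strand, GRCm38) and Psmb8 at chr17:34197721-34201454 (plus strand), in the MHC class II region with Tap1 between them. H2-Ab1, the gene disrupted in Aβ0/0 mice, lies 56.2 kb from Psmb8 and 69.9 kb from Psmb9. Psmb5 (chr14:54614119-54618022, minus strand) and Psmb11 (chr14:54621433-54629556, plus strand) are 3.41 kb apart on another chromosome. The Psmb8 window above lies in a single coding exon at chr17:34199290-34199346, and that of Psmb11 at chr14:54625462-54625518. The other 5 windows span an intron. Psmb6 lies at chr11:70525367-70527858, Psmb7 at chr2:38588036-38644087 and Psmb10 at chr8:105935735-105938444.

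Libraries held between 21710319 and 36139815 estimated counts. H2-Ab1 RNA was lower in every Aβ0/0 library than in every WT library of the same subset but was not absent, and which part of the gene is deleted is not given in the sources used here. After TMM scaling (edgeR's correction for library composition), H2-Ab1 ranged from 9025 to 11105 CPM (counts scaled to library size) in WT mTEC and from 1967 to 3799 in Aβ0/0 mTEC, a log2 fold change of 1.81 (SE 0.27, n = 3 and 3, edgeR adjusted p = 0.0352, lost in 4 of the 6 fits that left out 1 library, where it reached 0.138, and with the replicate number as a block, where it was 0.102). The ranges in cTEC were 6617 to 10159.5 in WT and 2181 to 3652 in Aβ0/0 (log2 fold change 1.47, SE 0.34, edgeR adjusted p = 0.695). The sorted subsets carried their markers. The summed level of 10 cTEC markers was 9150 to 27046 TPM (a level per transcript length that adds up to a fixed total in each library) in cTEC and 1877 to 2672 TPM in mTEC, and that of 10 mTEC markers was 18195 to 33721 TPM in mTEC and 2502 to 5267 TPM in cTEC. The Aβ0/0 cTEC library 2 stood apart from the other cTEC libraries in its proteasome RNA. Its mean over the 11 non-catalytic 20S subunits was 604 TPM, against 359 to 442 in the other Aβ0/0 cTEC libraries and 403 to 413 in WT cTEC. In bulk samples, fewer cells of a type and less RNA per cell cannot be told apart.

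At the β5 position, Psmb11 RNA was abundant in cTEC and low in mTEC. WT cTEC held 203, 248 and 172 TPM of Psmb11 in libraries 1, 2 and 3, and Aβ0/0 cTEC held 249, 442 and 188 TPM. WT mTEC held 6.50, 8.88 and 12.9 TPM, and Aβ0/0 mTEC held 6.18, 5.84 and 9.80 TPM. Every cTEC library was above every mTEC library, and the genotypes overlapped within each subset. The group means were 208 ± 38 TPM (SD, n = 3) in WT cTEC and 9.43 ± 3.25 TPM in WT mTEC, so that mTEC held 4.54% of the cTEC level. In Aβ0/0 mice the means were 293 ± 133 and 7.27 ± 2.19 TPM (2.48%). The mTEC level was not at the floor of detection, since 454 to 1416 estimated counts of Psmb11 were found in each mTEC library. Prss16, a serine protease of cTEC, stood at 3.22% (WT) and 2.84% (Aβ0/0) of its cTEC level in mTEC. It was the lowest in WT of the 10 cTEC markers, which stood at 3.22 to 74.3% in WT and at 1.36 to 27.5% in Aβ0/0 mice. Whether cTEC RNA in the mTEC libraries had a part in the Psmb11 level was not tested.

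**Figure D1:**
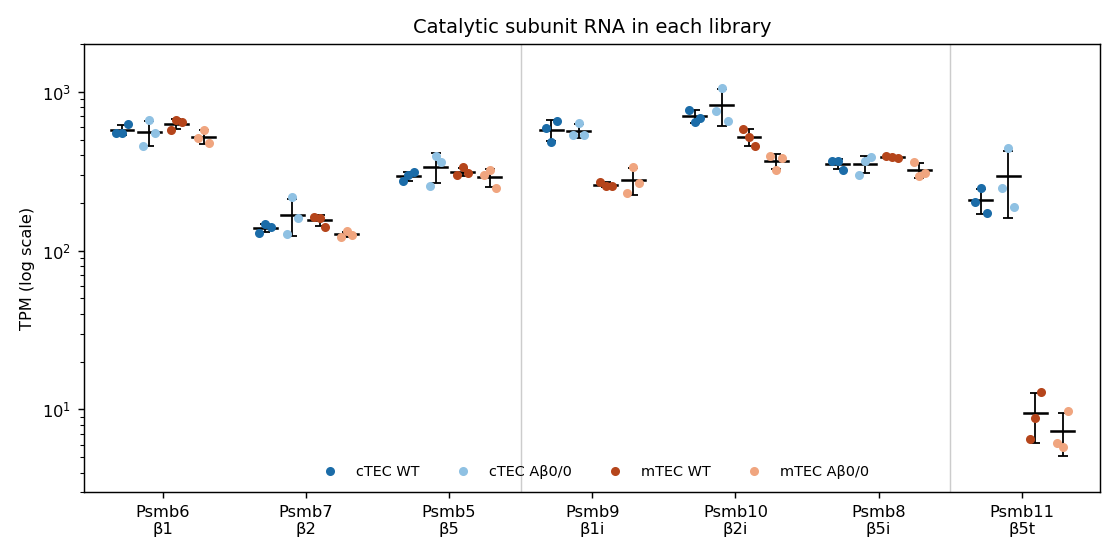
RNA level of each catalytic subunit in TPM (log axis) in the 12 libraries, by group; points are libraries, horizontal lines are means and bars are SD (n = 3). Psmb11 lies between 172 and 442 TPM in cTEC and between 5.84 and 12.9 TPM in mTEC, while the other 6 subunits lie at 123 TPM or higher in every library.

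The difference between subsets in Psmb11 was 4.36 on the log2 scale in WT mice (cTEC over mTEC, SE 0.36, edgeR adjusted p = 3.98e-04) and 5.19 in Aβ0/0 mice (SE 0.52, edgeR adjusted p = 0.00373). It kept its call without any one of the 6 libraries of either comparison, with log2 fold changes of 4.12 to 4.68 in WT and 4.58 to 5.47 in Aβ0/0. The size of the difference was not found to depend on genotype (interaction 0.82, SE 0.58, unadjusted p = 0.185 and adjusted p = 0.892 in edgeR). Between genotypes, the log2 fold change of WT over Aβ0/0 was 0.29 (SE 0.40, edgeR adjusted p = 0.839) in mTEC and -0.49 (SE 0.41, edgeR adjusted p = 1) in cTEC. The value in cTEC turned to 0.12 without Aβ0/0 library 2.

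Psmb8, the inducible β5 subunit, did not pass the test between the subsets. It was measured at 365, 365 and 324 TPM in WT cTEC and at 394, 388 and 384 TPM in WT mTEC. In Aβ0/0 mice the values were 301, 366 and 386 TPM in cTEC and 362, 293 and 308 TPM in mTEC. The WT mTEC libraries were close to each other and had the highest mean (389 ± 5.2 TPM, SD, n = 3, as compared to 351 ± 24 in WT cTEC). Their TPM range lay above that of WT cTEC, but the 2 groups overlapped after TMM scaling, and the log2 fold change of cTEC over mTEC was -0.20 (SE 0.24, edgeR adjusted p = 0.589). In Aβ0/0 mice it was -0.13 (SE 0.26, edgeR adjusted p = 0.852).

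Psmb5, the standard β5 subunit, varied more among Aβ0/0 cTEC libraries than between groups. The levels were 273, 301 and 311 TPM in WT cTEC and 298, 335 and 309 TPM in WT mTEC. Aβ0/0 cTEC held 257, 395 and 359 TPM and Aβ0/0 mTEC 300, 319 and 249 TPM. The ranges overlapped in all 4 comparisons. Its log2 fold changes lay between -0.12 (subsets in WT mice) and 0.03 (subsets in Aβ0/0 mice), with SEs of 0.22 to 0.35.

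The share of each subunit in the summed TPM of Psmb11, Psmb8 and Psmb5 was then computed in each library, since a share within a library needs no scaling between libraries. Psmb11 made up 24.2, 27.1 and 21.3% of the β5 position in WT cTEC and 30.9, 36.7 and 20.1% in Aβ0/0 cTEC. In WT mTEC it made up 0.929, 1.21 and 1.83%, and in Aβ0/0 mTEC 0.925, 0.944 and 1.73%. All cTEC libraries were above all mTEC libraries, and the genotypes overlapped in both subsets. Psmb8 held the largest mean share in all 4 groups (41.1% ± 2.0 in WT cTEC, 36.4% ± 5.5 in Aβ0/0 cTEC, 54.6% ± 1.7 in WT mTEC and 52.0% ± 4.0 in Aβ0/0 mTEC; SD, n = 3). Psmb5 made up 34.6% ± 3.4 and 34.4% ± 3.6 in WT and Aβ0/0 cTEC, and 44.1% ± 1.6 and 46.8% ± 4.2 in WT and Aβ0/0 mTEC.

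**Figure D2:**
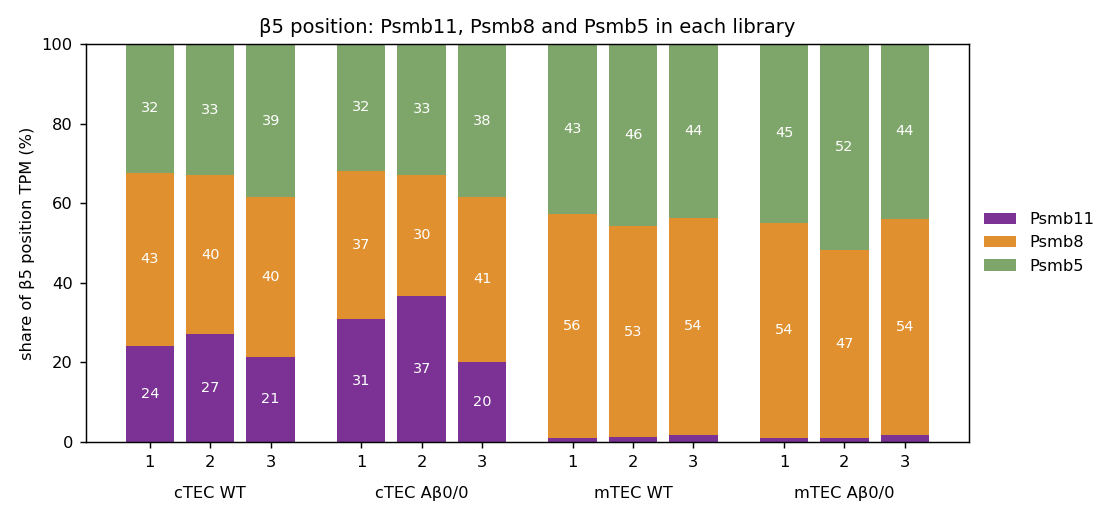
Share of Psmb11, Psmb8 and Psmb5 in their summed TPM (percent, stacked to 100) in each of the 12 libraries; numbers under the bars are replicate numbers. Psmb11 takes 20.1 to 36.7% of the bar in cTEC and 0.925 to 1.83% in mTEC, and Psmb8 and Psmb5 both take a larger part in mTEC.

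The shares of a position add up to 100%, so the 3 differences between subsets are not separate results, and the lower shares of Psmb8 and Psmb5 in cTEC do not say that their RNA was lower there. In Aβ0/0 mice their mean TPM was higher in cTEC (351 as compared to 321 for Psmb8, 337 as compared to 289 for Psmb5). Psmb11 was 25.5 percentage points higher in cTEC (SD over pools 6.59, higher in 6 of 6 pools), Psmb8 was 14.5 points lower (difference -14.5, SD 1.91, lower in 6 of 6) and Psmb5 was 10.9 points lower (difference -10.9, SD 5.17, lower in 6 of 6). Each of the 3 differences gave p = 0.03125 in an exact two-sided test over 64 sign flips of the 6 pools, which is the smallest p that test can give, and an adjusted p of 0.125 over 20 tests of shares. Compared over 6 against 6 libraries without regard to pools, the exact permutation test gave an adjusted p of 0.00866 for each. That test ignores the pairing of libraries by pool, and its unadjusted p of 0.00216 is also the smallest it can give. Between genotypes no share at the β5 position differed beyond the spread of the libraries. The difference of WT minus Aβ0/0 was 0.12 points for Psmb11 in mTEC and -5.04 points in cTEC (exact permutation p = 0.6 and 0.5), with 0.1 as the smallest p that 3 against 3 libraries allow. It was 2.62 and 4.79 points for Psmb8 (exact permutation p = 0.4 and 0.3) and -2.74 and 0.25 points for Psmb5 (exact permutation p = 0.4 and 0.7). These sizes rested on single libraries. Without 1 library each, the difference ran from -9.59 to -1.30 points for Psmb11 and from 1.83 to 7.29 for Psmb8 in cTEC, and from 0.33 to 3.81 points for Psmb8 and from -4.20 to -0.33 for Psmb5 in mTEC, and that of Psmb11 in mTEC and of Psmb5 in cTEC changed sign. Within pairs of the same replicate number, the mTEC differences of Psmb11, Psmb8 and Psmb5 had one sign in 3 of 3 pairs each (exact sign-flip p = 0.25, the smallest that 3 pairs allow).

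The summed RNA of the 3 β5 subunits was higher in every cTEC than in every mTEC library of the same genotype. The summed TPM of the β5 position was 854 ± 55 in WT cTEC and 712 ± 18 in WT mTEC (SD, n = 3), and 981 ± 203 and 618 ± 51 in Aβ0/0 mice. Divided by the mean TPM of the 11 non-catalytic 20S subunits (Psma1 to Psma7 and Psmb1 to Psmb4), the sum was 2.10 ± 0.16 in WT cTEC, 2.12 ± 0.13 in Aβ0/0 cTEC, 1.85 ± 0.06 in WT mTEC and 1.83 ± 0.32 in Aβ0/0 mTEC, and on that scale the subsets overlapped in Aβ0/0 mice.

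The share of Psmb11 within the β5 position depended on how transcript length was treated. The single Psmb11 transcript has 4247 bases, of which 906 are coding and 3321 are 3′ UTR, whereas the Psmb5 transcript has 871 bases in the deposited tables. With only the most abundant transcript of each gene, Psmb11 was at 30.5% of the position in WT cTEC, Psmb5 at 43.4% and Psmb8 at 26.1%. Psmb8 RNA was divided between coding isoforms of 1628 bases (48.1 to 54.3% of its TPM in the group means) and 815 bases (44.3 to 50.9%). With estimated counts per kilobase of the longest transcript the 3 shares were 30.6% (Psmb11), 31.1% (Psmb8) and 38.3% (Psmb5). In the deposited rlog values, put back on a linear scale and not corrected for length, Psmb11 made up 54.1% in WT cTEC and 6.58% in WT mTEC. Psmb11 stayed at or under 6.58% in the means of both mTEC groups and at or above 24.2% in those of both cTEC groups in all 4 units. The order of the 3 subunits within cTEC, and that of Psmb8 and Psmb5 within mTEC (54.6 and 44.1% in TPM, 38.4 and 59.8% with the most abundant transcript), did not stay the same.

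**Figure D3:**
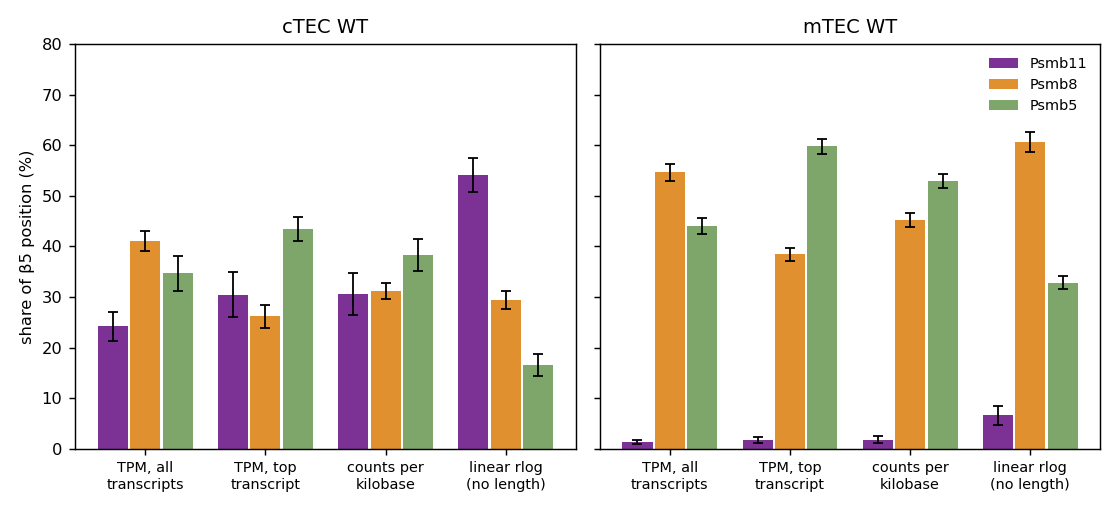
Mean share (percent) of Psmb11, Psmb8 and Psmb5 at the β5 position in WT cTEC (left) and WT mTEC (right) in 4 units: TPM over all transcripts, TPM of the most abundant transcript, estimated counts per kilobase, and linear rlog values without length correction; bars are SD (n = 3). In cTEC the Psmb11 share runs from 24.2 to 54.1% and the order of the 3 subunits changes with the unit, while in mTEC Psmb11 stays the smallest.

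At the β1 position, Psmb9, the inducible subunit, was higher in cTEC than in mTEC. WT cTEC held 588, 485 and 652 TPM and WT mTEC 271, 253 and 256 TPM. In Aβ0/0 mice, cTEC held 534, 636 and 536 TPM and mTEC 230, 338 and 266 TPM. Every cTEC library was above every mTEC library, and the genotypes overlapped. The log2 fold change of cTEC over mTEC was 1.09 in WT mice (SE 0.28, edgeR adjusted p = 0.0210) and 0.84 in Aβ0/0 mice (SE 0.32, edgeR adjusted p = 0.208). With the pool of mice as a block, the edgeR adjusted p was 0.0354 in WT and 0.0373 in Aβ0/0 mice, which changed the call in the latter. In WT mice the call was lost without any one of the mTEC libraries 1, 2 and 3, where the edgeR adjusted p was 0.0762, 0.0774 and 0.0750 and the log2 fold change 1.02, 1.13 and 1.15.

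Its standard partner Psmb6 did not separate the subsets. Its levels were 551, 548 and 623 TPM in WT cTEC, 455, 660 and 551 TPM in Aβ0/0 cTEC, 578, 667 and 642 TPM in WT mTEC and 515, 576 and 474 TPM in Aβ0/0 mTEC. The log2 fold change of cTEC over mTEC was -0.17 (SE 0.29, edgeR adjusted p = 0.727) in WT and -0.11 (SE 0.31, edgeR adjusted p = 0.899) in Aβ0/0 mice. Psmb9 made up 49.9% ± 2.6 of the summed Psmb9 and Psmb6 TPM in WT cTEC and 29.3% ± 2.3 in WT mTEC, and 50.8% ± 2.8 and 34.6% ± 3.3 in Aβ0/0 mice (SD, n = 3). The difference was 18.4 points over the 6 pools (SD 4.66, higher in cTEC in 6 of 6, exact sign-flip p = 0.03125, adjusted p = 0.125, and 0.00866 without pools). The share in mTEC was 5.26 points lower in WT than in Aβ0/0 mice (difference -5.26, exact permutation p = 0.2), and the libraries overlapped. The share depended on how transcript length was treated. Psmb9 was at 44.1% in WT cTEC and 25.3% in WT mTEC with the most abundant transcript of each gene, at 34.9 and 18.3% with estimated counts per kilobase, and at 60.5 and 41.3% in linear rlog values. The difference between subsets over the 6 pools was between 15.3 and 18.4 points in the 4 units.

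At the β2 position, Psmb10, the inducible subunit, had the highest mean TPM of the 7 in cTEC when all transcripts were summed, but not in its coding transcript. Its levels over all transcripts were 771, 648 and 681 TPM in WT cTEC and 762, 1060 and 650 TPM in Aβ0/0 cTEC. WT mTEC held 582, 523 and 453 TPM and Aβ0/0 mTEC 392, 323 and 384 TPM. The 3 lowest values were those of Aβ0/0 mTEC, below all WT mTEC libraries, and all cTEC libraries were above all mTEC libraries. The log2 fold change of cTEC over mTEC was 0.36 (SE 0.22, edgeR adjusted p = 0.286) in WT mice and 1.03 (SE 0.32, edgeR adjusted p = 0.121) in Aβ0/0 mice. The latter passed the threshold in DESeq2 (adjusted p = 0.0222) and in an edgeR fit on all 12 libraries (adjusted p = 0.0373), but not with the pool as a block (edgeR adjusted p = 0.0819). The difference between genotypes in that value was not past the threshold (interaction 0.66, SE 0.39, unadjusted p = 0.113, adjusted p = 0.831 in edgeR).

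Psmb7, the standard β2 subunit, was the lowest of the 7 in cTEC, with 129, 147 and 141 TPM in WT and 127, 216 and 161 TPM in Aβ0/0 libraries. In mTEC it was measured at 164, 161 and 142 TPM in WT and at 123, 132 and 125 TPM in Aβ0/0 libraries. The subsets overlapped in WT and in Aβ0/0 mice, and the log2 fold change of cTEC over mTEC was -0.20 (SE 0.24) and 0.23 (SE 0.35), with edgeR adjusted p = 0.599 and 0.801. Psmb10 made up 83.3% ± 2.1 of the summed Psmb10 and Psmb7 TPM in WT cTEC, 83.0% ± 2.8 in Aβ0/0 cTEC, 76.9% ± 1.0 in WT mTEC and 74.2% ± 2.8 in Aβ0/0 mTEC (SD, n = 3). The share was 7.61 points higher in cTEC (SD over pools 2.81, higher in 6 of 6, exact sign-flip p = 0.03125, adjusted p = 0.125, and 0.00866 without pools). In mTEC it was 2.71 points higher in WT than in Aβ0/0 mice (exact permutation p = 0.2, and between 1.08 and 3.72 points without 1 library each), higher in 3 of 3 pairs of the same number (exact sign-flip p = 0.25, the smallest possible). Of the Psmb10 TPM, 35.5 to 36.5% in the group means came from the protein-coding transcript, and the rest was assigned to retained-intron and processed transcripts. In WT cTEC the coding transcript was at 236, 294 and 224 TPM, below the main coding transcripts of Psmb6 (485, 472 and 556 TPM) and Psmb9 (396, 367 and 427 TPM). With the most abundant transcript of each gene the share was 64.2% in WT cTEC and 54.4% in WT mTEC, with estimated counts per kilobase 88.3 and 83.5%, and in linear rlog values 77.1 and 70.2%. The difference between subsets over the 6 pools was between 5.93 points (counts per kilobase) and 11.7 points (most abundant transcript) in the 4 units.

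Of the 7 catalytic subunits, 2 (Psmb11 and Psmb9) passed the threshold toward cTEC in WT mice, where 8.81% of the 18667 genes tested did, and 1 (Psmb11) did so in Aβ0/0 mice, where 2.15% of 15687 did. After TMM scaling, Psmb9, Psmb10 and Psmb11 were higher in all cTEC than in all mTEC libraries in both genotypes, 3 of 7 members, against 17.1% of genes in WT and 12.9% in Aβ0/0 mice. No member passed the threshold toward mTEC, where 18% of genes did in WT and 3.45% in Aβ0/0 mice. The WT and Aβ0/0 comparisons of subsets have no library in common, whereas each shares libraries with the comparisons of genotypes. The median log2 fold change of the 7 was -0.12 in WT and 0.23 in Aβ0/0 mice, against -0.06 and -0.03 over all genes tested.

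**Figure D4:**
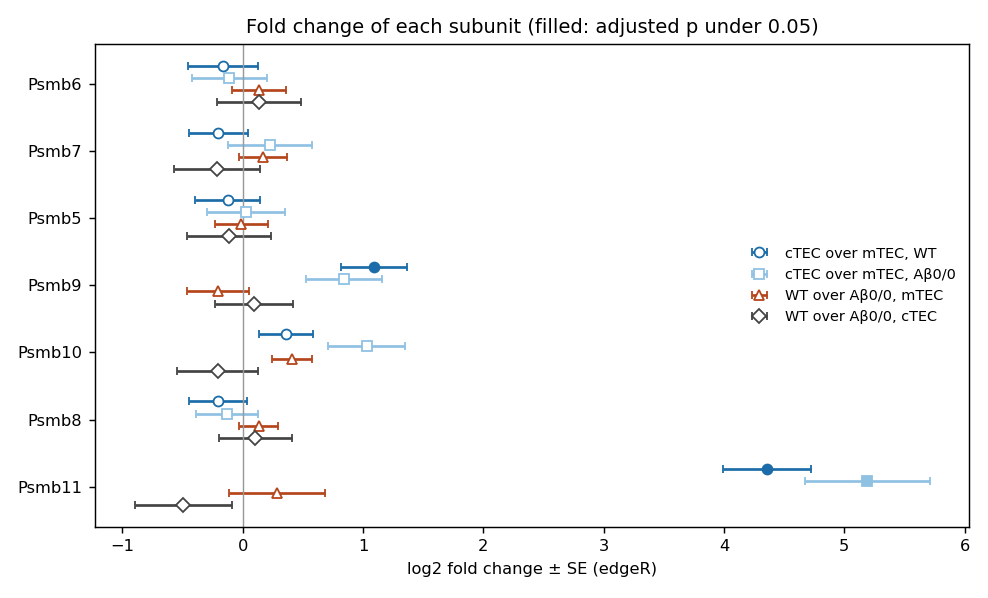
Log2 fold change with SE from edgeR of each catalytic subunit in the 4 comparisons; filled symbols mark an adjusted p under 0.05. Psmb11 is at 4.36 and 5.19 and Psmb9 at 1.09 and 0.84 between subsets, and the genotype values of all members lie between -0.49 and 0.41.

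Between WT and Aβ0/0 mTEC, 0 of the 7 members passed the threshold in edgeR and 0 in DESeq2, where 5.66% of 18636 genes did so in edgeR and 2457 of 27301 in DESeq2. In edgeR, 1 member (Psmb10) had an unadjusted p under 0.05, as did 2859 of the 18636 genes. Psmb10 was higher in WT by 0.41 on the log2 scale (SE 0.17, unadjusted p = 0.0453 and adjusted p = 0.309 in edgeR), and it was the 1 of 7 members with groups that did not overlap after TMM scaling, which 18.2% of genes did in that direction. The adjusted p of Psmb10 was between 0.103 and 0.630 under the other settings that kept all libraries. In TPM, without that scaling, the WT range lay above the Aβ0/0 range for 4 members (Psmb6, Psmb7, Psmb8 and Psmb10), against 12.1% of the 11561 genes with a mean of at least 5 TPM. The other members had log2 fold changes between -0.20 (Psmb9) and 0.29 (Psmb11). With the replicate number as a block, which pairs WT and Aβ0/0 mTEC libraries, 0 of the 1054 genes called without it were called, and Psmb10 was at 0.41 (SE 0.13, unadjusted p = 0.0240, adjusted p = 0.230 in edgeR).

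Between WT and Aβ0/0 cTEC, 0 of the 7 members passed the threshold in edgeR and in DESeq2, where 0.0194% of 15432 genes did so in edgeR and 123 of 23738 in DESeq2. None had an unadjusted p under 0.05 in edgeR, as 333 of the 15432 genes did. The groups of all 7 overlapped after TMM scaling, whereas those of 7.83% of genes did not. Log2 fold changes ran from -0.49 (Psmb11) to 0.13 (Psmb6). The interaction of genotype and subset was past the threshold for 0 of 7 members in edgeR and in DESeq2, where 0.0103% of 19461 genes passed in edgeR and 407 of 28113 in DESeq2. In edgeR 0 members were at an unadjusted p under 0.05, as were 1343 of the 19461 genes.

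Psmb8 and Psmb9, the members nearest to H2-Ab1, were not called between genotypes, with log2 fold changes of WT over Aβ0/0 of 0.13 (SE 0.16) and -0.20 (SE 0.26) in mTEC. Of the 9 genes tested within 100 kb of Psmb8 besides the members, H2-Ab1 was the 1 called between genotypes in mTEC (without the block), and 0 were called in cTEC. Tap1 and Tap2, which carry peptides into the endoplasmic reticulum and lie beside both, had log2 fold changes of WT over Aβ0/0 in mTEC of -0.44 (SE 0.19, edgeR adjusted p = 0.334) and -0.23 (SE 0.23, edgeR adjusted p = 0.765). Between subsets in WT mice, the genes called near Psmb9 were H2-DMa, a peptide-exchange chaperone of MHC class II, at 1.64 (SE 0.32, edgeR adjusted p = 0.00768), and H2-Oa and H2-Ob, the chains of its inhibitor, at -2.08 (SE 0.21, edgeR adjusted p = 6.72e-04) and -1.93 (SE 0.31, edgeR adjusted p = 0.00409). Near Psmb5 and Psmb11, 1 of 8 genes tested was called between subsets in WT mice (Ajuba, 1.39, SE 0.26, edgeR adjusted p = 0.00722), whereas Psmb5, 3.41 kb from Psmb11, was not. Among the neighbours tested in that comparison, 5 of 10 were called lower in cTEC near Psmb6, 1 higher and 1 lower of 13 near Psmb10, and 1 of 3 lower near Psmb7, where 18% of all genes were called lower and 8.81% higher. Between genotypes in mTEC, Vmo1 near Psmb6 and Gm29776 near Psmb5 and Psmb11 were called without the replicate block but not with it (edgeR adjusted p = 0.170 and 0.232), and no neighbour of any member was called between Aβ0/0 subsets or between genotypes in cTEC.

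The order of the 7 genes by mean TPM over all transcripts, coding or not, differed between subsets. In WT cTEC it was Psmb10, Psmb9, Psmb6, Psmb8, Psmb5, Psmb11 and Psmb7, in which the libraries of neighbours overlapped down to Psmb6 and were separate from there on. In WT mTEC it was Psmb6, Psmb10, Psmb8, Psmb5, Psmb9, Psmb7 and Psmb11, in which Psmb6 and Psmb10 overlapped and the following neighbours were separate. Aβ0/0 libraries gave the same order as WT in each subset, but other neighbours overlapped. In Aβ0/0 cTEC, Psmb9 overlapped with Psmb6, Psmb8 with Psmb5, Psmb5 with Psmb11 and Psmb11 with Psmb7, whereas Psmb10 was separate from Psmb9 and Psmb6 from Psmb8. In Aβ0/0 mTEC, Psmb10 overlapped with Psmb8, Psmb8 with Psmb5 and Psmb5 with Psmb9, and the other neighbours, Psmb6 and Psmb10 among them, were separate.

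Levels were also set against the mean TPM of the 11 non-catalytic 20S subunits of the same library, which are the 7 alpha subunits of the outer rings and the 4 structural beta subunits that share the inner rings with the catalytic ones. In cTEC the ratio was higher than in mTEC of the same pool for Psmb9 (1.33 and 0.74, difference 0.59, SD 0.27), Psmb10 (1.75 and 1.22, difference 0.53, SD 0.26) and Psmb11 (0.56 and 0.023, difference 0.54, SD 0.14), in 6 of 6 pools each. It was lower for Psmb6 (1.31 and 1.58, difference -0.28, SD 0.13) and Psmb8 (0.82 and 0.98, difference -0.16, SD 0.12), also in 6 of 6 pools each. All 5 gave the smallest p that exact sign flips of 6 pools allow (0.03125, adjusted p = 0.175 over 28 tests of ratios). Psmb5 (difference -0.11, SD 0.13) and Psmb7 (difference -0.04, SD 0.05) gave p = 0.125 in the same exact test. With the median of the 11 subunits as denominator, the difference of Psmb8 was -0.14 with an exact sign-flip p of 0.09375, and Psmb6, Psmb9, Psmb10 and Psmb11 stayed at 0.03125.

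**Figure D5:**
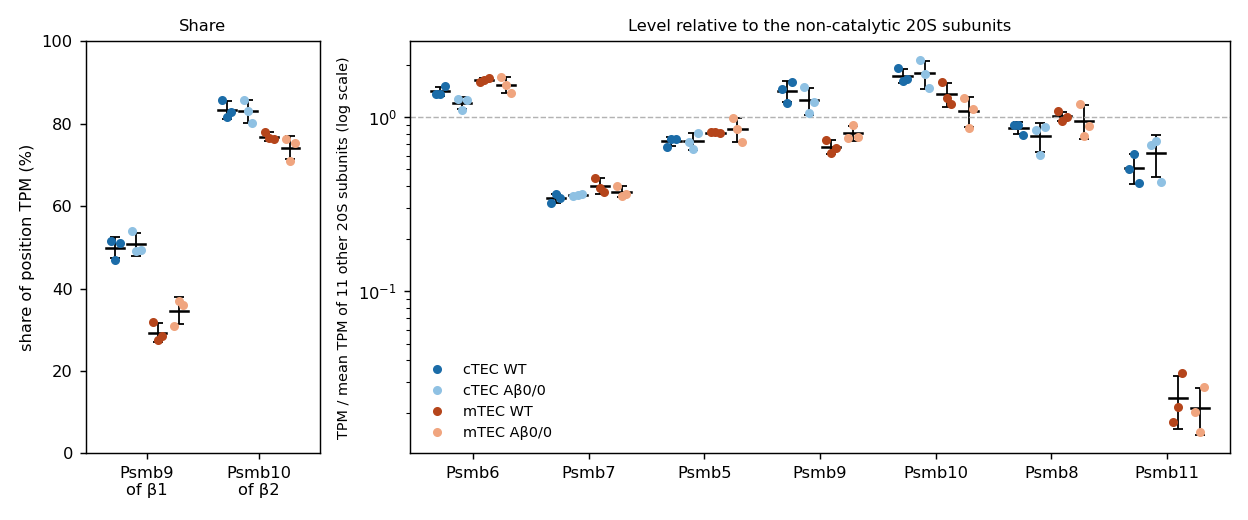
Left, share (percent) of Psmb9 in the β1 position and of Psmb10 in the β2 position; right, TPM of each member divided by the mean TPM of the 11 non-catalytic 20S subunits of the same library (log axis, dashed line at 1). Points are libraries, lines are means and bars are SD (n = 3); Psmb9, Psmb10 and Psmb11 are higher in cTEC, and Psmb6 and Psmb8 are higher in mTEC of the same pool.

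Between genotypes, no ratio could pass the threshold, since the smallest p that 3 against 3 libraries allow is 0.1. Psmb6 was at 1.41 in WT and 1.20 in Aβ0/0 cTEC, and Psmb9 at 0.676 in WT and 0.809 in Aβ0/0 mTEC, each with an exact permutation p of 0.1 and an adjusted p of 0.389, and the other members gave a larger p in both subsets. Within mTEC pairs of the same number, the ratio was higher in WT in every pair for Psmb7 and Psmb10 and lower in every pair for Psmb9. The other members had pairs of both signs, and the pairs were not tested. Psmb6 in cTEC gave an exact permutation p of 0.2 with the median of the 11 subunits and with the 7 alpha subunits as denominator. Psmb9 in mTEC gave 0.2 in the same exact test with the alpha subunits, and its difference of WT minus Aβ0/0 moved from -0.13 to -0.27 with the median. Psmb5 in mTEC moved from -0.04 (exact permutation p = 0.7) to -0.18 (exact permutation p = 0.1) with the median.

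Over all genes, 26.8% were called between subsets in either direction in WT mice (18% toward mTEC) and 5.6% in Aβ0/0 mice, and the counts in the other genes of the pathway stand against these shares. The 7 alpha subunits, the 4 structural beta subunits, the 5 assembly chaperones and the 6 ATPases and 12 other subunits of the 19S cap gave 0 calls in either genotype in edgeR, with 1 (a 19S subunit) at an unadjusted p under 0.05 in WT and 0 in Aβ0/0 mice. Such a p was found for 6947 of 18667 genes in WT and 2792 of 15687 in Aβ0/0 mice. The median log2 fold change was 0.07 for the alpha subunits in WT and 0.26 in Aβ0/0 mice, against -0.06 and -0.03 over all genes. Of the 5 activators and inhibitor, Psme2, a subunit of the interferon-inducible PA28 activator, was lower in WT cTEC by 1.13 on the log2 scale (fold change -1.13, SE 0.26, edgeR adjusted p = 0.0136). Its partner Psme1 was at -0.61 (SE 0.26, edgeR adjusted p = 0.131). Of the 7 genes of class I peptide transport and loading, Erap1, which trims peptides in the endoplasmic reticulum, was higher in WT cTEC (0.97, SE 0.30, edgeR adjusted p = 0.0488), and the others were not called. The medians of these 2 lists in WT were -0.62 and -0.10. The call of Psme2 was lost in 2 of the 6 fits that left out 1 library (adjusted p up to 0.0682) and that of Erap1 in 5 of 6 (up to 0.167).

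Of 8 regulators of catalytic subunit genes, 2 passed the threshold between subsets in WT mice and 3 in Aβ0/0 mice, against 26.8% and 5.6% of all genes. Ifngr2, a chain of the interferon gamma receptor, and Irf8, an interferon regulatory factor, were lower in WT cTEC (-1.76, SE 0.22, edgeR adjusted p = 0.00141, and -1.56, SE 0.30, edgeR adjusted p = 0.00720). Neither was called between Aβ0/0 subsets. After TMM scaling, Irf8 turned there and was higher in all cTEC libraries, as were 12.9% of genes, whereas Ifngr2 stayed lower in all of them. In Aβ0/0 mice, Foxn1, the master regulator of thymic epithelium, and Irf1 were higher in cTEC (1.70, SE 0.38, and 0.95, SE 0.21, edgeR adjusted p = 0.0429 and 0.0428). Nlrc5, the transactivator of MHC class I genes, was lower there (-2.15, SE 0.37, edgeR adjusted p = 0.0196). Between genotypes, Irf8 was higher in WT mTEC (1.26, SE 0.18, edgeR adjusted p = 0.0352, and 0.155 with the replicate block) and no other gene of the pathway and regulator lists was called in either subset. The interaction for Irf8 was 1.89 (SE 0.38, edgeR adjusted p = 0.266). The calls of Ifngr2 and Irf8 between subsets held without any one library. Those of Foxn1 and Nlrc5 in Aβ0/0 mice and of Irf8 between genotypes were lost in 5 of 6 such fits, and that of Irf1 in 6 of 6, with adjusted p up to 0.134, 0.0817, 0.138 and 0.150.

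Markers of other cells moved with the subsets. All 10 thymocyte markers had a positive log2 fold change of cTEC over mTEC (9 called in WT, 4 in Aβ0/0), and their summed level was 259 to 586 TPM in WT cTEC, 690 to 846 in Aβ0/0 cTEC, 70.9 to 154 in WT mTEC and 28.2 to 137 in Aβ0/0 mTEC. Of the 6 fibroblast markers, 3 had a positive and 3 a negative log2 fold change of cTEC over mTEC in WT mice. In Aβ0/0 mice 4 were positive and 1 negative of 5 tested, and in each genotype 3 were called, all toward cTEC. Their summed level was 1638 to 2511 TPM in cTEC of both genotypes and 111 to 257 TPM in mTEC. The 10 markers of dendritic cells, macrophages and B cells went the other way in WT mice, with 35.5 to 355 TPM in cTEC (Itgax at 0) and 618 to 675 TPM in mTEC, and reached 11.9 to 40.5 TPM in Aβ0/0 cTEC (Adgre1 at 0) and 115 to 772 TPM in Aβ0/0 mTEC (Itgax and Adgre1 at 0). Between genotypes in mTEC, 9 of these 10 markers were higher in WT (median log2 fold change 1.94 against 0.0026 over all genes, 2 called, 5 at an unadjusted p under 0.05 in edgeR), the direction of the Irf8 and Psmb10 values as well, and the part of such RNA in those values was not tested. The 5 endothelial markers summed to 45.3 TPM at most (Emcn at 0 in Aβ0/0 mTEC), and 4 epithelial markers to 2758 TPM at least. Psmb8, Psmb9 and Psmb10 are made in many of these cells, and the part of such RNA in the values of Psmb9 and Psmb10 was not tested.

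Some reads of the members could also come from other genes. Of the stretches of 31 bases in the Psmb5 transcript, 67.8% were also found in other genes, mostly in Gm3375 (61.7%) and Psmb5-ps (11.2%), which were listed at 0 to 0.540 and 0 to 0.186 TPM, so the level of Psmb5 is less certain than that of Psmb8 (0.147% shared) and Psmb10 (0%). Psmb9 shared 4.83% with Tap1, which overlaps it on the opposite strand, and Psmb7 shared 10.3% with Nek6. The 5.82% that Psmb11 shared was spread over 1845 genes.

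The genes whose profile over the 12 libraries was nearest to that of Psmb11 were Prss16, Ackr4 and Dnajc13, with a root mean square difference of 0.36, 0.47 and 0.51 on the rlog (regularized log2) scale after each gene was centred, among 11358 genes with a mean of at least 5 TPM. Those nearest to Psmb8 were Sdhd, Capg and Supt4a (0.11, 0.11 and 0.12), and those nearest to Psmb5 were BC031181, Sh3bgrl3 and Rbm3 (0.11 each). Among the members, Psmb5 was nearest to Psmb6 and to Psmb7 (0.11 each) and Psmb9 to Psmb10 (0.31), whereas Psmb11 differed from the other 6 by 1.74 to 2.21. Psmb8 was nearer to Psmb6 (0.14) than to Psmb9 (0.54) or Psmb10 (0.41).

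Promoters of 6 members (not Psmb7) were searched on both strands for short motifs in the 250 bases before the RefSeq start (GRCm38.p6), among 32851 promoters. The core GACGC, known as the binding core of Foxn1, was found in Psmb11 and Psmb8 and in 22.6% of all promoters. It occurred at 2 places before Psmb11 and at 1 before Psmb8, shown with 10 flanking bases on each side and the match in capitals, which reads GCGTC where it lies on the other strand.
Psmb11, chr14:54625061-54625085: ctgacaggtgGCGTCttcagagtgt
Psmb11, chr14:54625238-54625262: cttctccacaGCGTCctcctcctcc
Psmb8, chr17:34197992-34198016: ccatccccagGACGCacgcctaggt

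CCAAT was found in Psmb11 and Psmb9 (33.8% of all promoters) and TATAAA in Psmb8 (12.4%). A match describes the letters of the window only.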

How the data were processed

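The authors sorted the cells, prepared polyA cDNA libraries with SMART-Seq v4 and, per the labels, processed the reads with bcl2fastq 2.20.0, Trim Galore and kallisto 0.43 (mm10). The deposited per-library tables give estimated counts and TPM for 109282 transcripts, and the authors also deposited DESeq2 rlog values, a regularized log2 scale with no correction for length, in 1 table. Transcripts were assigned to genes by GENCODE M21 identifiers (107987 matched, the other 1295 held 0.450 to 0.512% of the counts) and summed to 34547 genes. The annotation release that the authors used is not given in the sources used here. Estimated counts were rounded and tested in edgeR 4.0.16 (R 4.3.3; filterByExpr, TMM, robust quasi-likelihood, Benjamini-Hochberg over all genes tested, threshold 0.05), on the 6 libraries of each comparison or all 12 for the interaction. SE was the log2 fold change divided by the square root of F. DESeq2 1.42.0 was an alternative. The steps were tested on simulated data, in which 60% of the genes given a shift of 3 on the log2 scale were called between WT subsets, 57.1% between genotypes in mTEC and 32.2% in the interaction.

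Shares and ratios were computed from TPM per library and compared by exact two-sided tests (sign flips over pools for subsets, permutation for genotypes). Pools come from the study's table of sort yields, which lists cTEC and mTEC of one genotype and number together. That the numbers in the sample names are those of the table was assumed. Deviations of same-pool libraries from their group means correlated at 0.38, -0.04 and 0.19 in WT and 0.36, 0.20 and 0.07 in Aβ0/0 mice. The table also lists WT and Aβ0/0 under each number. In it every Aβ0/0 mTEC sort gave fewer cells than every WT mTEC sort, and cTEC sorts gave fewer cells in Aβ0/0 under each number. The part of cell number in the values between genotypes was not tested. Same-numbered WT and Aβ0/0 libraries correlated at 0.424, 0.231 and 0.105 in mTEC, but at 0.336, -0.153 and -0.0055 in cTEC. The main tests between genotypes did not pair them, and only the alternatives with the replicate number as a block did. With that block, 0 genes were called between genotypes in mTEC in edgeR. The libraries of a group came from separate pools.

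Named genes were the 7 members, H2-Ab1, list genes past the threshold (up to 3 a list and comparison), protein-coding genes within 100 kb of a member, and the 3 genes nearest in profile to Psmb11, Psmb8 and Psmb5. Psme1, Tap1, Tap2, Prss16, Ccl21a and genes that share sequence were named after their values were seen. 1 gene and 2 of the 5 motifs searched are not reported here. Members and lists were chosen with earlier results of these data known.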

Additional observations from a re-analysis of the deposited data

How the results depend on the processing

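The call of Psmb11 between subsets and the sign of every difference in share between subsets held under all alternatives run. The number of members called between Aβ0/0 subsets was 2 in DESeq2 and in the fit on all 12 libraries (Psmb10 and Psmb11), and 2 with the pool as a replicate block (Psmb9 and Psmb11). Of all genes, these settings called 2760 of 23867, 1819 of 19461 and 630 of 15687. For the share of Psmb11, Psmb8, Psmb5, Psmb9 and Psmb10 the differences without the block (25.5, -14.5, -10.9, 18.4 and 7.61 points) passed the threshold. That test ignores the pairing by pool, and in exact sign flips over pools the adjusted p of each was 0.125. Counts over all genes moved most, and the cause was not tested. The fit on all 12 libraries called 2760 genes between WT subsets, 1819 between Aβ0/0 subsets, 20 between genotypes in mTEC and 16 in cTEC. DESeq2 called 2760, 2457, 123 and 407 genes (Aβ0/0 subsets, genotypes in mTEC and cTEC, interaction), and no filter on low counts gave 27 in mTEC and 7 in cTEC. With the replicate block, 0 genes were called between genotypes in mTEC, 0 in cTEC and 0 in the interaction. In cTEC the same numbers did not correlate in every pair, so that block is a shared number only.

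Signs that turned belonged to values that passed no test. Psmb5 was at -0.0073 between Aβ0/0 subsets with the block, and between genotypes in mTEC at 0.0059 with RLE factors, 0.0036 in DESeq2, 0.0048 with the block and 0.0054 on all 12 libraries. With the median of the 11 subunits as denominator, the ratio difference of WT minus Aβ0/0 in mTEC was -0.169 for Psmb6, -0.0335 for Psmb7, -0.0989 for Psmb8 and -0.00075 for Psmb11, and the interaction for Psmb7 was -0.011.

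Without 1 library each, 1 to 2 members were called in WT mice, and 3395 to 7572 genes were called between WT subsets, 338 to 456 between Aβ0/0 subsets, 0 to 2377 and 1 to 3 between genotypes in mTEC and cTEC, and 1 to 18 in the interaction. Log2 fold changes that turned ranged between subsets from -0.41 to 0.032 for Psmb5 in WT, and in Aβ0/0 mice from -0.39 to 0.13 for Psmb6, -0.23 to 0.30 for Psmb5, -0.28 to 0.093 for Psmb8 and -0.14 to 0.50 for Psmb7. Between genotypes in mTEC they ranged from -0.12 to 0.21 for Psmb5, -0.014 to 0.55 for Psmb11 and -0.39 to 0.094 for Psmb9. In cTEC they ranged from -0.19 to 0.42 for Psmb6, -0.41 to 0.15 for Psmb5, -0.11 to 0.27 for Psmb8, -0.46 to 0.16 for Psmb7, -0.38 to 0.18 for Psmb10, -0.76 to 0.12 for Psmb11 and -0.20 to 0.31 for Psmb9. The interaction ranged from -0.25 to 0.37 for Psmb6, -0.12 to 0.43 for Psmb5, -0.10 to 0.29 for Psmb8 and -0.49 to 0.055 for Psmb9. Share differences of WT minus Aβ0/0 ranged from -1.70 to 2.30 points for Psmb5, -1.75 to 0.73 for Psmb9 and -1.04 to 1.71 for Psmb10 in cTEC, and -0.13 to 0.39 for Psmb11 in mTEC. Ratio differences ranged from -0.22 to 0.11 for Psmb10 and -0.041 to 0.039 for Psmb5 in cTEC, and in mTEC from -0.11 to 0.028 for Psmb5, -0.032 to 0.17 for Psmb8 and -0.0017 to 0.0064 for Psmb11.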
